A study of Mus musculus with 2 samples.

Results

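Mir139 is a mouse microRNA (miRNA) gene, and this account follows it through small RNA sequencing of cerebral cortex. It was chosen by its level, as the gene of highest mean count share over both libraries, so it is 1 of the 2202 miRNA genes of the deposited tables and its top rank is the choice itself, not a finding. The study sequenced cortex of mouse strain B6NCrl in 2 libraries of 1 group, labelled as wild-type control tissue from females, although neither sex nor age was recorded in the fields meant for them. The labels number the libraries as biological replicates 1 and 2 but cite a single donor record for both, so the spread between them may be technical. A single group leaves no treated, mutant or other tissue to set Mir139 against. It was therefore compared with other miRNA genes within the cortex and between the 2 libraries.

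A miRNA is cut from a hairpin-shaped precursor into a pair of short strands, one from each arm, and the strand loaded into an Argonaute protein represses messenger RNAs that carry sites matching its seed, bases 2 to 8 from its 5′ end. Mir139 lies within Pde2a, which encodes a phosphodiesterase that breaks down cyclic AMP and cyclic GMP, is stimulated by cyclic GMP and is abundant in the forebrain. In human cells miR-139-5p, the strand of the 5′ arm, is best known as a miRNA that is low in many tumours.

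The Mir139 precursor (identifier ENSMUSG00000065446.1) lies at chr7:101475376-101475443 on the plus strand (GRCm38, the assembly of mm10). Its sequence, from RefSeq on build GRCm38.p6, is shown with both mature arms in capitals, because the deposited count of the gene pools the reads of both.
Mir139 precursor: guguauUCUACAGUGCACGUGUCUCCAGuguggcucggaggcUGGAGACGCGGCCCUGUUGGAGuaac
The precursor is 68 nt long with a GC content of 58.8%. The 5′ arm takes bases 7 to 28 and the 3′ arm bases 43 to 64, with 14 nt between them. RNAfold predicted a fold of -35.6 kcal/mol with 25 base pairs, 19 of them between the arms, closed by a loop of 7 nt. In that predicted fold, 20 of the 22 bases of miR-139-5p were paired, 6 of its seed bases among them.

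The mature strands of Mir139 and of the 3 genes that follow it in mean level are given with the seed in capitals, to show which of these highly counted miRNAs belong to seed families.
mmu-miR-139-5p: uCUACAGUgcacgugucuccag
mmu-miR-139-3p: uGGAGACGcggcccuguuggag
mmu-let-7b-5p: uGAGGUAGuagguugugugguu
mmu-let-7b-3p: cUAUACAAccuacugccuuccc
mmu-miR-132-5p: aACCGUGGcuuucgauuguuac
mmu-miR-132-3p: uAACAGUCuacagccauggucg
mmu-miR-127-5p: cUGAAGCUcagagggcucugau
mmu-miR-127-3p: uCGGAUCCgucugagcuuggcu
Neither Mir139 seed occurs in a mature strand of another gene among the 1738 RefSeq mature mouse miRNAs, whose table holds 1032 of the 2202 counted genes by symbol. That is common, since 68.0% of the strands in the table have a seed found in 1 gene alone. Both Mir127 seeds are likewise found in no other gene, whereas the seed of let-7b-5p occurs in 12 other genes and that of miR-132-3p in 1. The site in a messenger RNA that pairs with the seed of miR-139-5p reads ACUGUAG. Allowing a match of 6 of the 7 seed bases, from base 2 on, added 1 strand for the 3′ arm, that of Mir6397, which had 0 counts in both libraries, and none for the 5′ arm.

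Like most detected genes, Mir139 shares no long run of sequence with another counted gene. No run of 18 nt in its precursor, read on either strand, occurs in another counted precursor. Of the 2202 precursors 1179 share such a run with another gene, as do 106 of the 438 detected genes (2 CPM or more in both libraries, where CPM is a count scaled by the summed sense counts of the library) and 6 of the 20 genes of highest mean level. Neither arm occurs whole in any other transcript of the GENCODE M21 set. Reads placed at several loci enter no gene's count in these tables, so a gene with a unique sequence keeps reads that genes with copies lose. A genome-wide search for copies was not made.

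By position Mir139 is an intronic miRNA. It lies in an intron of 10 of the 12 annotated Pde2a transcripts (Pde2a, chr7:101421691-101512827, plus strand), and no exon of the gene overlaps it. In Pde2a-201, a protein-coding transcript of 31 exons, it lies between exons 2 and 3, in an intron of 29.9 kb (chr7:101451469-101481370), 23.9 kb after exon 2 and 5.93 kb before exon 3. Over the 10 transcripts the annotation gives 3 such introns, which share their downstream end. The longer protein-coding gene Gm45837 overlaps Pde2a on the same strand and holds Mir139 in an intron as well. The map of these transcripts shows the long Pde2a forms with most of their exons after Mir139.

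**Figure D1:**
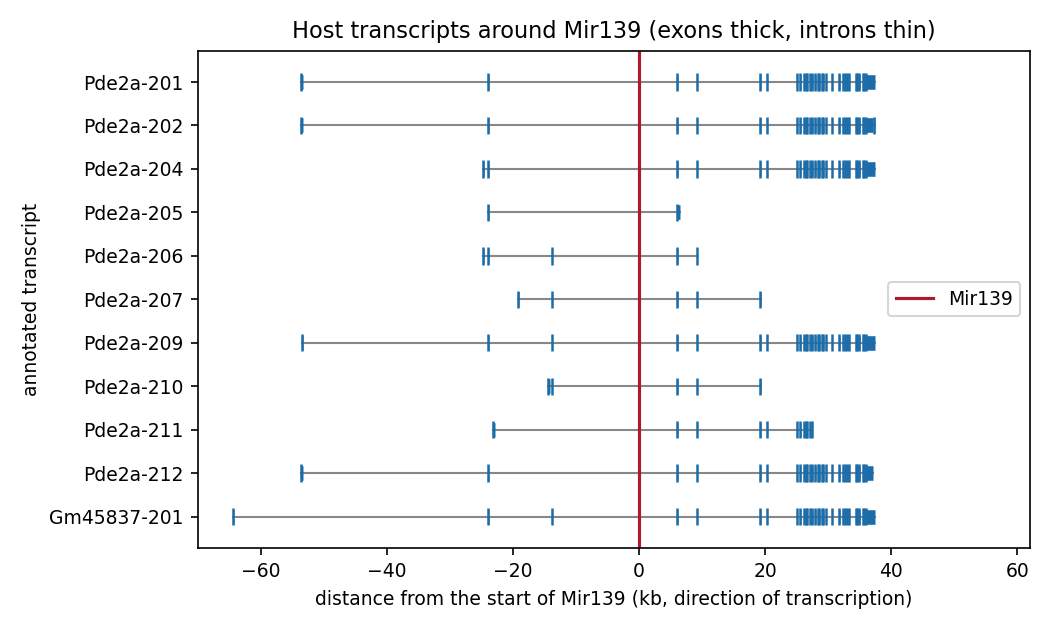
Annotated transcripts of Pde2a (upper 10 lines) and Gm45837 (lowest line) that hold Mir139 in an intron, by distance from the start of Mir139 in kb. Blue marks are exons, drawn with a minimum width, grey lines are introns, and the red line is Mir139, which lies 5.93 kb before the next exon in all of them.

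Replicate 1 held 801656 reads of Mir139 in the sense direction and replicate 2 held 1495446. All counts together came to 4429633 in replicate 1 and 6985784 in replicate 2, so Mir139 stood at 180976 CPM (replicate 1) and 214070 CPM (replicate 2). Its share of gene counts was thus 18.1% in replicate 1 (18.06 to 18.13, 95% Wilson interval) and 21.4% in replicate 2 (21.38 to 21.44), and averaged 19.8% ± 2.34 (SD, n = 2). The intervals cover counting error only, and the libraries differed by far more than that. On the opposite strand Mir139 had 0 counts in both libraries, where 3 counts, the limit that a count of 0 allows, correspond to 0.677 CPM (replicate 1) and 0.429 CPM (replicate 2).

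The gap to the next genes was wide in each library. Mirlet7b, one of the let-7 genes, whose miRNAs build up in differentiating cells, was next in mean level, with 54505 CPM (replicate 1) and 51647 CPM (replicate 2). Mir139 was 3.32 times as high as Mirlet7b in replicate 1 and 4.14 times in replicate 2 (mean 3.73 ± 0.583, SD, n = 2). In replicate 2 Mir132, a neuronal miRNA induced by activity, was the closest gene, with 42570 CPM (replicate 1) and 61586 CPM (replicate 2). Mir139 was 4.25 times as high as Mir132 in replicate 1 and 3.48 times in replicate 2. The values of Mir139 in the 2 libraries did not overlap those of any other gene, while several of the genes below it overlapped one another and changed order. Since Mir139 was chosen by these same values, its separation is a description and was not tested.

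Mir744 shows how far that order moved. It had rank 3 in replicate 1, at 53089 CPM, and rank 9 in replicate 2, at 23259 CPM, so that Mir139 was 3.41 times as high in replicate 1 and 9.20 times in replicate 2. Mir127, an imprinted miRNA of the Dlk1-Dio3 region, had 46372 CPM (replicate 1) and 43249 CPM (replicate 2). Mir132 was below both Mirlet7b and Mir127 in replicate 1 and above both in replicate 2. It could therefore not be placed against that pair by 2 libraries. Mir744 was below Mirlet7b in both libraries, but above Mir127 in replicate 1 and below it in replicate 2. Mirlet7b was above Mir127 in both. Behind them came Mirlet7i, Mirlet7g, Mirlet7d, Mir23b and Mirlet7e. Mir139 was 4.85 to 9.44 times as high as each of these 5 genes in either library.

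**Figure D2:**
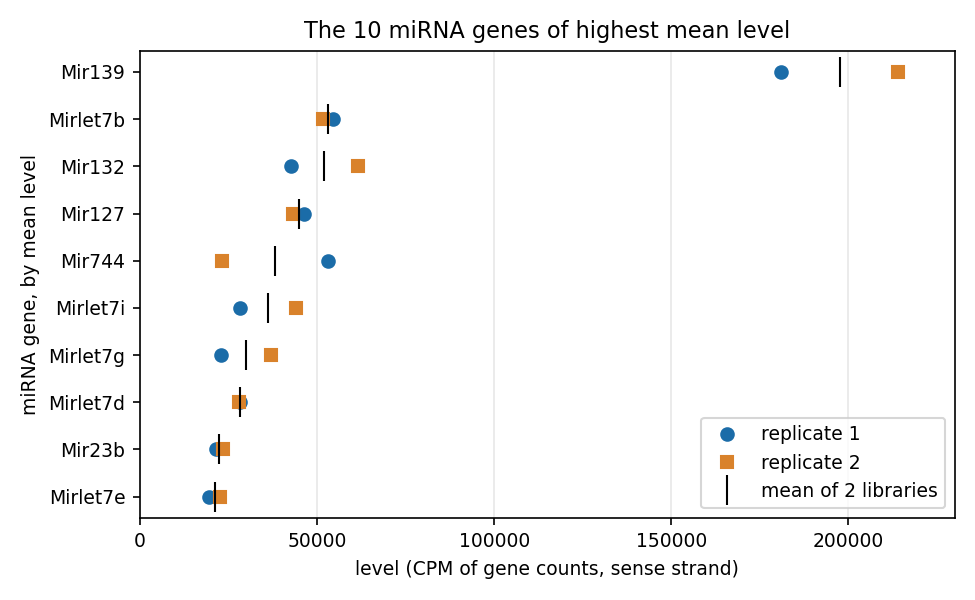
Level of the 10 miRNA genes of highest mean level, in CPM of sense gene counts on a linear axis that starts at 0, with circles for replicate 1, squares for replicate 2 and a bar for their mean. Mir139 lies at 180976 and 214070 CPM, apart from the other 9 genes, which lie at 61586 CPM or lower.

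Sets of other genes reached the level of Mir139 only when summed. In replicate 1 the 3 next genes summed to 15.4% of counts and the 4 next to 19.7%, against 18.1% for Mir139. In replicate 2 the 4 next held 20.1% and the 5 next held 23.8%, against 21.4% for Mir139. The let-7 family, of which 12 genes were counted, held 15.6% in replicate 1 and 18.7% in replicate 2, and Mir139 was 1.16 times that whole family in replicate 1 and 1.14 times in replicate 2. This sum lacks the let-7 reads that matched more than 1 locus. Mirlet7a-1, Mirlet7a-2, Mirlet7c-1, Mirlet7c-2, Mirlet7f-1 and Mirlet7f-2, the genes with numbered copies, each had 932 CPM or less in either library.

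Neuron-enriched miRNAs served to check the tissue and to place Mir139 among abundant cortical genes. Of 13 genes listed as neuron-enriched with 1 locus, 12 were detected, and together they averaged 11.9% of counts ± 0.0502 (SD, n = 2). The sum was steady although members moved in opposite directions. Mir132 held 4.26% of counts in replicate 1 and 6.16% in replicate 2, and Mir149 held 2.40% and 1.31%. Mir139 was 1.51 times the sum of this list in replicate 1 and 1.80 times in replicate 2. After Mir132 its highest members were Mir149, Mir330 and Mir598. In replicate 1 these stood at 24016, 18971 and 12527 CPM, and in replicate 2 at 13124, 11275 and 9972 CPM. Mir212, which is made from the same transcript as Mir132, had 2020 CPM (replicate 1) and 1462 CPM (replicate 2). The median of the list was 3571 CPM, beside 57.8 CPM over all detected genes and 0 over all 2202 genes. The one undetected member, Mir344, had 0 counts in both libraries.

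Neuronal genes with several loci were counted far below Mir139. The 12 genes of this list held 2.22% of counts (replicate 1) and 2.18% (replicate 2), and 8 were detected. The 3 Mir124a genes, which encode 1 mature miRNA typical of neurons, had 3 to 7 counts each in replicate 1 and 4 to 16 in replicate 2. Markers of other cells were present at lower shares. Epithelial genes held 1.28% of counts in replicate 1 and 0.199% in replicate 2, and choroid plexus genes 0.0831% and 0.182%. Oligodendrocyte genes held 0.711% of counts (replicate 1) and 0.785% (replicate 2), vascular genes 0.429% and 0.543%, and microglial and leukocyte genes 0.135% and 0.194%. Genes of liver, muscle and red blood cells were counted at low levels, given here for replicate 1 and then replicate 2. Counts were 112 and 219 for the liver gene Mir122, and 88 and 206 for the muscle gene Mir206. Of 5 muscle genes 4 had no count, these being numbered copies. Reads placed at several loci enter no count, so this does not show their absence. Of 3 red blood cell genes 1 was detected, Mir486, at 48 and 67 counts. Counts of Mir451a were 8 and 75, and those of Mir144 were 3 and 0. In bulk tissue, more cells that express a miRNA and more of it per cell cannot be told apart.

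The first place of Mir139 is its place among uniquely placed reads. Replicate 1 held 12506469 reads in all and replicate 2 held 18276311, of which Mir139 made up 6.41% and 8.18%. Reads placed at several loci made up 43.9% of replicate 1 and 47.9% of replicate 2, and were 6.84 times and 5.85 times as many as those of Mir139. Its share therefore depends on what it is divided by. Of uniquely placed reads, those outside miRNA genes included, Mir139 held 16.4% in replicate 1 and 19.9% in replicate 2. Of uniquely placed reads and reads at several loci together, it held 7.73% in replicate 1 and 9.20% in replicate 2. A miRNA encoded by several loci would equal Mir139 if it took 14.6% of the reads at several loci in replicate 1 and 17.1% in replicate 2. Which miRNAs those reads belong to is not recorded in the tables, so whether Mir139 gives the most abundant mature miRNA of the cortex cannot be told from them.

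**Figure D3:**
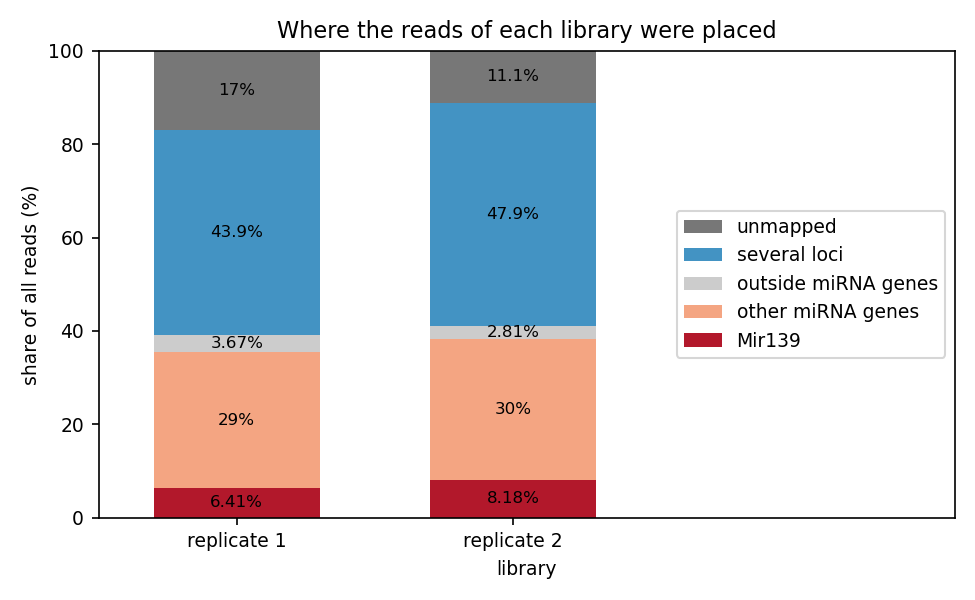
Share of all reads in each library, in percent, that fell on Mir139, on the other miRNA genes, outside miRNA genes, at several loci, or that were unmapped. Mir139 takes 6.41% of replicate 1 and 8.18% of replicate 2, and the reads at several loci take 43.9% and 47.9%.

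The level of Mir139 was lower in replicate 1 than in replicate 2, and many other abundant genes differed by more. With library sizes scaled by the trimmed mean of M values (TMM), its log2 ratio of replicate 1 over replicate 2 was -0.37 (exact 95% interval -0.37 to -0.36, counting error only), so that replicate 2 was 1.29 times as high. The exact two-sided binomial test, run on all 438 detected genes with Benjamini-Hochberg adjustment, put Mir139 past an adjusted p of 0.05, as it did 63.5% of genes. Its adjusted p was too small to be stored as a number, as for 55 genes in all, Mir139 included. Mir139 did not reach the ratio of 2 that a call also needed, which 77 genes did (17.6%), 36 of them (8.22%) toward replicate 1 and 41 (9.36%) toward replicate 2. The split turned with the scaling, to 54 toward replicate 1 and 29 toward replicate 2 with library totals, and 46 and 31 with Mir139 left out of those totals. This test sets 2 libraries and their counting error against each other, not conditions.

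The 21 genes that averaged 10000 CPM or more had both smaller and larger differences. Their log2 ratios of replicate 1 over replicate 2 ran from -1.05 for Mir22 to 1.07 for Mir744, and these were the 2 called. The median size of these ratios, regardless of sign, was 0.58, above the 0.37 of Mir139, and 8 of the 21 genes, Mir139 included, had a ratio of that size or smaller. Over the 438 detected genes the median size was 0.50, and Mir139 ranked 177 from the smallest. The genes at 10000 CPM or more whose log2 ratio lay nearest to that of Mir139 were Mirlet7e (-0.34), Mir23b (-0.27), Mir29a (-0.58), Mirlet7d (-0.11) and Mir132 (-0.66). With 2 libraries this likeness is a single difference, and nothing further was drawn from it.

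**Figure D4:**
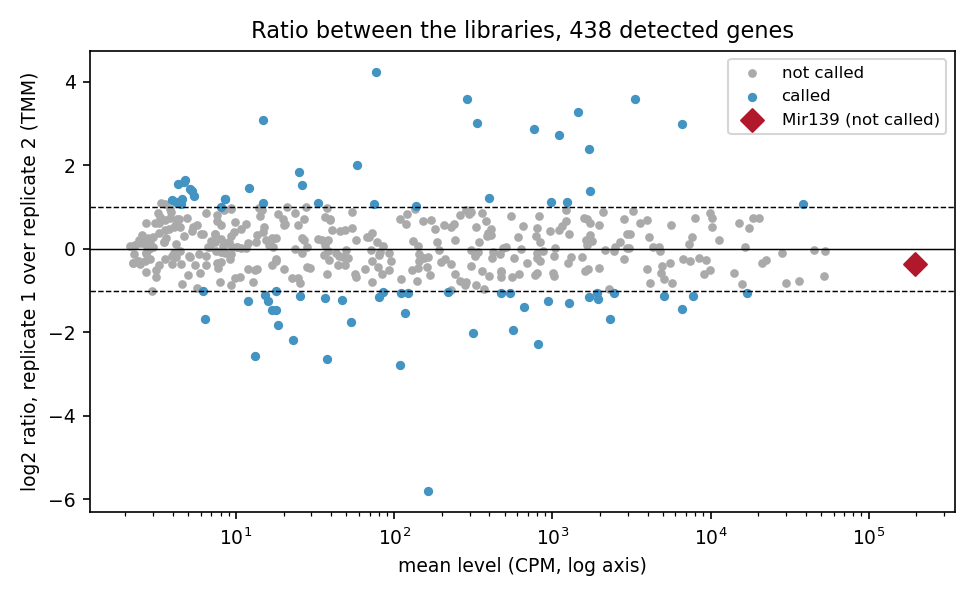
Log2 ratio of replicate 1 over replicate 2 with TMM scaling against mean level in CPM on a log axis, for the 438 detected genes. Blue points are the 77 called genes, dashed lines mark a ratio of 2 either way, and the red diamond is Mir139 at -0.37, inside those lines at the right edge.

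Other measures moved between the same 2 libraries. The 6 epithelial genes of the Mir200 family and Mir205 held 1.28% of counts (replicate 1) and 0.199% (replicate 2). Of these 6 of 6 were called, beside 17.6% of all detected genes. They are not 6 separate observations, since Mir200a, Mir200b and Mir429 lie close together on chromosome 4, and Mir200c and Mir141 on chromosome 6. The summed share of choroid plexus genes went the other way. The 3 genes held 0.0831% in replicate 1 and 0.182% in replicate 2, and 2 of 3 were called. Most of that sum was Mir204, at 778 CPM (replicate 1) and 1755 CPM (replicate 2). Mir449a, at 49.7 and 53.0 CPM, was not called. Among the 12 detected neuron-enriched genes with 1 locus, 1 was called, Mir153, with 175 counts in replicate 1 and 88 in replicate 2. Their median log2 ratio was 0.09, beside 0.03 over all detected genes and -0.37 for Mir139. Precursor base composition also differed, with a GC content of 58.8% for Mir139 and a median of 53.2% for detected genes. The 154 detected genes within 5 percentage points of the GC content of Mir139, itself included, had a median log2 ratio of 0.21, opposite in sign to that of Mir139. With a straight-line trend on GC content removed, a step added after seeing the data, the log2 ratio of Mir139 was -0.59. The part of tissue make-up and base composition in the ratio of Mir139 was not tested.

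A gene of this size also sets the scale for the others, since CPM values share a fixed total. Leaving Mir139 out of the totals multiplied the CPM of the other genes by 1.22 in replicate 1 and by 1.27 in replicate 2. Relative to library totals, that changed the median log2 ratio of the other 437 detected genes, which was 0.10 with Mir139 left out, 0.16 with it included and 0.04 with TMM. The log2 ratio of Mir139 itself was -0.24 with library totals and -0.30 with Mir139 left out of them.

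Mir139 weighed heavily in how concentrated the counts of each library were. The inverse Simpson index, the number of equally abundant genes that would give the same concentration, was 19.9 in replicate 1 and 15.7 in replicate 2. Without Mir139 it was 38.2 in replicate 1 and 34.7 in replicate 2. Mir139 supplied 65.1% of the sum of squared shares in replicate 1 and 72.0% in replicate 2. The 10 highest genes of each library held 50.7% of counts (replicate 1) and 54.9% (replicate 2).

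**Figure D5:**
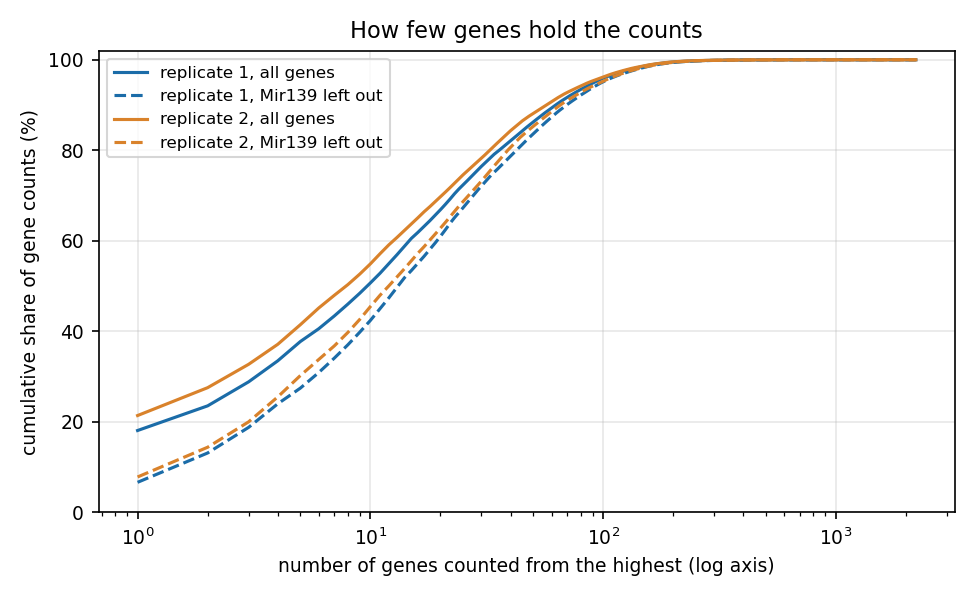
Cumulative share of gene counts, in percent, against the number of genes counted from the highest, on a log axis, for each library with all genes (solid) and with Mir139 left out (dashed). The solid curves start at 18.1% in replicate 1 and 21.4% in replicate 2, which is Mir139 alone.

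Set against other miRNA genes of its kind by position, Mir139 took a large part of their sum. Of the 2202 genes, 741 lie in an intron of a protein-coding gene on the same strand, and 190 of these were detected (25.6%), as were 248 of the other 1461 (17.0%). The intronic genes held 44.9% of counts (replicate 1) and 44.1% (replicate 2). Mir139 made up 40.3% of the intronic counts in replicate 1 and 48.5% in replicate 2. Without it the class held 26.8% and 22.7% of all counts, with a median of 26.1 CPM over 189 detected genes. That median was lower than the 103 CPM of the 248 other detected genes. The next highest intronic genes were Mir744 in Map2k4, Mirlet7g in Wdr82 and Mir23b in 2010111I01Rik, and 8 intronic genes in all, Mir139 included, reached a mean of 10000 CPM.

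On chromosome 7, which carries 153 of the counted genes, Mir139 made up 87.5% of the counts in replicate 1 and 92.5% in replicate 2. Of the 153 genes, 33 were detected and 95 had no count in either library. The next highest was Mir330, a neuron-enriched gene, and Mir139 was 9.54 times as high in replicate 1 and 19.0 times in replicate 2. The nearest counted gene, Gm22655, starts 406 kb away and had 0 counts in both libraries. Mir3102, 593 kb away on the opposite strand, had 1646 CPM (replicate 1) and 789 CPM (replicate 2). Mir139 thus had no counted neighbour within 406 kb.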

How the data were processed

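Small RNA of 2 cortex libraries was measured. The authors deposited 1 table of raw read counts per library, not normalized, over 2202 miRNA genes in 3 columns (either strand, sense and opposite strand), with mm10 and the M21 annotation per the deposited readme text. Adapters were trimmed, per the labels' protocols. For the aligner and counter, the sources used here give no name. In each table, 4 summary lines without a gene (unmapped, several loci, outside genes, ambiguous) were left out of library sizes. Their shares stand with the results, ambiguous reads being 0 in the sense column.

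Sense counts were scaled to CPM over gene lines. All 2202 identifiers matched GENCODE M21, whose precursors gave GC content. TMM factors came from edgeR 4.0.16 and alternative size factors from DESeq2 1.42.0. Each gene's pair of counts went through a two-sided exact binomial test (scipy 1.17.1) with Benjamini-Hochberg adjustment. A call needed a ratio of 2 beside an adjusted p under 0.05. A count of 0.5 was added for log2 ratios. The test was checked on data simulated with counting error only, as the test assumes. That check does not cover the larger spread between these libraries. Folding used ViennaRNA 2.7.2, and mature sequences came from RefSeq (GRCm38.p6).

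Mir139, the gene lists and the tests were chosen with earlier results of these data known. Genes were named by rank: Mir139, the 9 next in mean CPM, the 5 at 10000 CPM or more nearest in ratio, genes sharing a seed, and list members used to place Mir139. Other genes, such as those of extreme ratio, high intronic genes and neighbours on the chromosome, were named after their values were seen.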

Additional observations from a re-analysis of the deposited data

How the results depend on the processing

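The share of Mir139 in gene counts averaged 19.8%, and leaving out either library gave 18.1% and 21.4%. It was 18.2% of all uniquely placed reads, but 8.46% with reads at several loci added and 7.30% of all reads, by construction of the larger totals. Of either-strand counts it was 20.9%, over a smaller total (4212255 against 4429633 in replicate 1, 6592865 against 6985784 in replicate 2). Mirlet7e, for example, had 0 either-strand counts in both libraries. The level of Mir139 over Mirlet7b was 3.73 times, and ranged from 3.32 to 4.14 with either library left out. The either-strand column and leaving out numbered copies gave 3.73 as well, but could hardly change it. Neither gene is a numbered copy, and neither had more than 2 counts on the opposite strand in a library. The log2 ratio of Mir139, replicate 1 over replicate 2, stayed negative and short of a call under 8 alternatives. It was -0.24 with library totals and -0.59 with a trend on GC content removed, a setting chosen after seeing the data. The cause was not tested. Among the 8, the ratio limit of 1.5 could change only the call, not the ratio. The count of called genes was 77 of 438 tested. It was 169 of 438 at a ratio limit of 1.5, since more genes pass a lower limit. Under the other 7 alternatives it was 57 to 87. The 87 were called among 787 genes tested without the detection filter, a smaller share than 77 of 438. With the either-strand column 69 of 415 were called, and with the deeper library thinned 75 of 433. With library totals 54 genes were called toward replicate 1 and 29 toward replicate 2, with Mir139 left out of the totals 46 and 31, and with TMM 36 and 41. No paired analysis was possible because there was 1 group.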
